A study of Homo sapiens with 7 samples.

Results

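The baseline transcriptome of HUDEP-2 cells was described from the 3 libraries that carried a non-targeting guide, out of 7 libraries in the study. HUDEP-2 is an established human line of erythroid precursors, immortalised from umbilical cord blood, that matures towards red cells when its medium is changed. The line is kept dividing by papillomavirus genes switched on with doxycycline, which the labels list in the expansion medium only. All 7 libraries came from cells of this line that had received lentivirus for CRISPR interference, a method that steers a dead Cas9 joined to a repressor with a guide RNA. The other 4 libraries carried guides against a regulatory region of TMCC2 and were not compared here. The cells had been expanded with stem cell factor at 50 ng/ml, erythropoietin at 3 IU/ml, dexamethasone and doxycycline at 1 μg/ml. They were then moved for 72 h to a medium with 3 IU/ml erythropoietin, 1 mg/ml holo-transferrin, 10 μg/ml insulin, 3 IU/ml heparin, 2% AB plasma and 3% AB serum. The values therefore describe infected, immortalised cells at a single time, and an uninfected or undifferentiated HUDEP-2 library was not analysed here. Whether the 3 replicates were grown separately is not in the labels, so their spread may be technical.

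A maturing erythroblast fills itself with haemoglobin, a tetramer of alpha-like and beta-like globin chains, each holding a haem. Iron enters through the transferrin receptor, passes into mitochondria and is placed in haem, while a spectrin-based skeleton and an anion exchanger are built at the plasma membrane. GATA1 and KLF1 are the transcription factors best known for switching on these genes. TMCC2 encodes a transmembrane and coiled-coil protein of the endoplasmic reticulum, and per the labels it has an erythroid isoform. The counts are per gene and do not separate isoforms.

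The guide carried by the 3 libraries, and the start-site windows of 3 genes whose levels are described below, are shown first. The 3 windows were picked because they held the motif described next. Those of GATA1, KLF1, TFRC, FTL and FECH, among others read, did not hold it. The guide, from the labels, has 21 bases, of which 15 are G or C, written in capitals. It had an exact match on either strand in 0 of 35116 RefSeq promoter windows.
non-targeting guide: atCGCGaGGaCCCGttCCGCC
Each window below covers the 250 bases before an annotated start in RefSeq, build GRCh38.p14, read 5′ to 3′ on the strand of the gene, with AGATAA or its reverse complement TTATCT in capitals. This is the only form of the GATA motif searched, so a window without it may hold another form. TMCC2 has 6 annotated windows, of which the fifth, at chr1:205255952-205256201 on the plus strand, held the motif, starting 95 bases before the start site. The ALAS2 window lies at chrX:55030978-55031227 on the minus strand, with the motif 127 bases before the start. The EPB42 window lies at chr15:43221019-43221268 on the minus strand and held the motif at 2 places.
TMCC2 window 5: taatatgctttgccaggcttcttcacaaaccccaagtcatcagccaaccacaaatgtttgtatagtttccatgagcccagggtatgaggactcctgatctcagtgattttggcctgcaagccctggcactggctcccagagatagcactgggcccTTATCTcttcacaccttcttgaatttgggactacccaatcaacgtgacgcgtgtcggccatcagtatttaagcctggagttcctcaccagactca
ALAS2: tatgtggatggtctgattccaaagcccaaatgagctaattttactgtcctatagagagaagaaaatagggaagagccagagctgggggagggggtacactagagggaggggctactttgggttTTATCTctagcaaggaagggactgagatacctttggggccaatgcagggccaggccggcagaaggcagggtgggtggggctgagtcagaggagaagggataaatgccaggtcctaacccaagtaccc
EPB42: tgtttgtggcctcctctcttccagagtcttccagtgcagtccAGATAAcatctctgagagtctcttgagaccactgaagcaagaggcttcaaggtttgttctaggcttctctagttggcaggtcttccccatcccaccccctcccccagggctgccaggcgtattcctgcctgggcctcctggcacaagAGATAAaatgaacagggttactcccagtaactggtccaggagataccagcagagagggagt
Of 138 genes in 8 lists of red cell function, 103 had a window, and the motif was found for 22 of them (21.4%). It was found for 9.39% of the 15780 genes of the table with a window and for 6.73% of 7368 such genes with at least 10 counts in each library. The list genes had more annotated windows each, 1.64 against 1.39 over the whole table. CCACACCC, a KLF1-type motif searched on both strands, was found for 6 of the 103 genes (5.83%). Its share was 4.15% of all genes with a window and 3.81% of the detected ones, those with at least 10 counts in each library. TATAAA was found for 14 of the 103 (13.6%), for 11.7% of all and for 7.13% of the detected ones. The list genes thus stood above the detected genes for each of the motifs searched, not for the GATA motif alone. A match describes these letters and no more.

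Levels are given on 2 scales. CPM, counts scaled to a common library total, are a gene's share of all counts in a library, which is what the cell's sequenced RNA was spent on, and a long transcript takes more counts than a short one. The length-scaled level (TPM) divides counts by transcript length before taking the share and was used to set genes against each other. Library totals were 10639032, 11350113 and 9780800 counts for replicates 1, 2 and 3, so that 3 counts, the limit a count of 0 allows, were at most 0.307 CPM. Of 32738 genes in the table, 9348 (28.6%) had at least 10 counts in each library and are called detected. These held 99.8% of all counts.

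Counts were concentrated in few genes. HBB alone took 17.1%, 19.3% and 19.6% of all counts in replicates 1, 2 and 3. The 10 highest genes of each library took 29.1%, 32.3% and 33.1%, and the 100 highest took 48.3%, 52.4% and 53.3%. The smallest number of genes that held 50% of counts was 117 in replicate 1, 81 in replicate 2 and 75 in replicate 3. Replicate 1 was thus the least concentrated library by each of these measures. On the length-scaled level the same share was held by 16, 9 and 8 genes. Genes at or above 1000 CPM numbered 110, 107 and 106 in the 3 libraries, a count that varied little between libraries. Of the 10 highest genes of each library, 9 were the same in all 3 libraries, and of the 100 highest, 93 were.

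**Figure D1:**
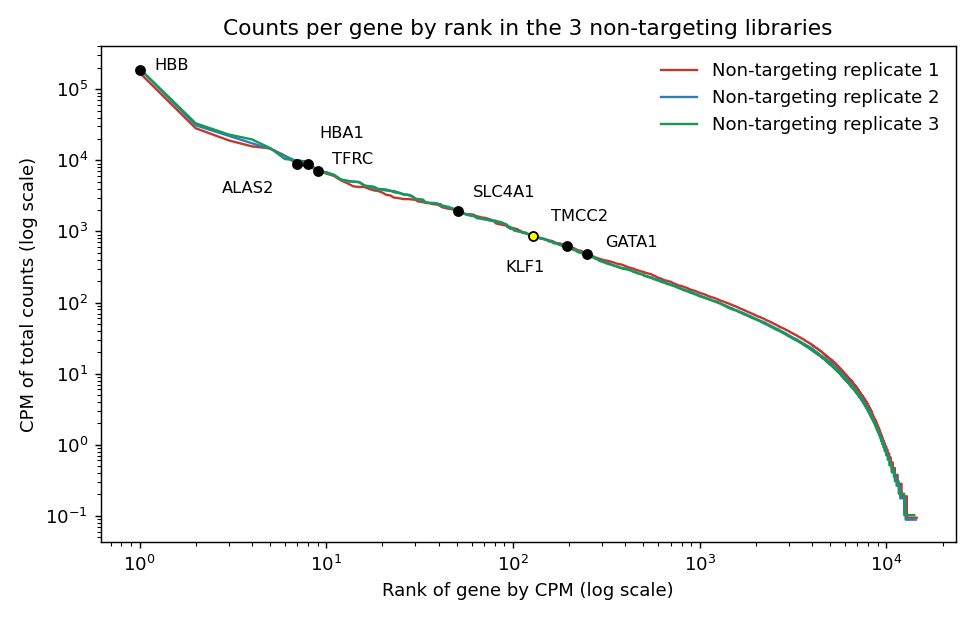
CPM of every gene with a count (vertical, log scale) against its rank within the library (horizontal, log scale), 1 line per non-targeting library; black points mark the mean CPM of 7 erythroid markers and the yellow point TMCC2. The 3 lines nearly coincide, HBB stands at 186662 CPM at rank 1, and TMCC2 lies at 865 CPM at rank 128.

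The globin genes came first. HBB, the adult beta chain, stood at 170684, 193338 and 195965 CPM in replicates 1, 2 and 3 and was the highest gene in each. HBA2, an adult alpha chain, stood at 28242, 31114 and 33184 CPM, and HBG2, a fetal gamma chain, at 15719, 17400 and 19697 CPM. HBA1, the other adult alpha gene, stood at 7394, 9552 and 9960 CPM. In all 4 genes replicate 1 was the lowest library. HBA1 and HBA2, and likewise HBG1 and HBG2, are near-identical. How reads shared by such copies were counted is not given in the sources used here, so their values are uncertain one by one. If shared reads were left out, their sums and the globin shares that use them are affected as well. The 10 globin genes together took 23.0%, 26.1% and 26.9% of counts, 25.3% ± 2.04 (SD, n = 3), and 26.5% as the mean without replicate 1. On the length-scaled level they took 44.1%.

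Among beta-like transcripts, on the length-scaled level, HBB made up 87.7% ± 0.515 (SD, n = 3), the gamma genes HBG1 and HBG2 together 10.1% ± 0.559, the minor adult delta gene HBD 2.15% ± 0.0643 and the embryonic gene HBE1 0.0217% ± 0.00393. The gamma share was 10.0%, 9.58% and 10.7% in replicates 1, 2 and 3. Among alpha-like transcripts, HBA1 and HBA2 made up 93.2% ± 0.554, HBM 6.28% ± 0.519 and the embryonic gene HBZ 0.0614% ± 0.0100. The adult genes thus led both families, and the embryonic genes were the lowest members of each set of shares. The summed alpha-like level was 0.251 ± 0.00714 (SD, n = 3) of the summed beta-like level. With the counting of reads shared by HBA1 and HBA2 unknown, that ratio does not give the balance of the chains. The shares within each family, the gamma share among them, carry the same limit. AHSP, which encodes the chaperone of free alpha globin, stood at 4297, 4974 and 4999 CPM and was the seventh highest gene on the length-scaled level, at 10231 TPM.

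Haem synthesis took 1.75% ± 0.0860 (SD, n = 3) of counts over 9 genes, all of them detected. ALAS2, the erythroid enzyme of the first and rate-limiting step, stood at 8076, 9309 and 9577 CPM, at rank 8 in each library. It was above its housekeeping counterpart ALAS1 by 165 ± 10.9 times on the length-scaled level. UROD stood at 1342 ± 113 TPM and FECH, which inserts iron, at 868 ± 139 TPM. UROS stood at 371 ± 15.8 TPM, PPOX at 336 ± 36.6 TPM, ALAD at 196 ± 6.87 TPM and CPOX at 120 ± 37.2 TPM. The genes of the pathway therefore spanned a wide range, with ALAS2 highest. Replicate 1 was the highest library for 2 of the 9 genes, FECH and CPOX, against 53.8% of all detected genes, and the lowest for 6 of the 9, against 29.5%.

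Iron handling was spread over 2 lists. Mitochondrial iron and haem transport took 1.75% ± 0.0545 (SD, n = 3) of counts, and most of it went to 2 carriers. SLC25A37, or mitoferrin-1, which brings iron into mitochondria, stood at 11586, 11585 and 10444 CPM, the sixth highest mean of all genes. Its paralogue SLC25A28 had 5.61 ± 0.496 CPM, so that the ratio between them was 602 ± 37.1 on the length-scaled level. SLC25A39, a mitochondrial glutathione carrier, stood at 4222, 5031 and 5179 CPM. The haem pathway transporter gene TMEM14C stood at 516 ± 74.7 TPM and ABCB10, which binds mitoferrin-1, at 20.9 ± 5.86 TPM.

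Iron uptake and storage at the level of the cell took 3.65% ± 0.0812 (SD, n = 3) of counts. FTL, the ferritin light chain, stood at 19119, 22119 and 23118 CPM and was at rank 3 in each library. FTH1, the heavy chain, had 683 ± 39.2 CPM, but FTH1 has many processed copies in the genome, so its value is uncertain. TFRC, the transferrin receptor, stood at 8820, 6193 and 6287 CPM, with replicate 1 well above the other libraries. NCOA4, the receptor that carries ferritin to the lysosome, stood at 5214, 4047 and 4396 CPM, again highest in replicate 1. SLC40A1, the iron exporter ferroportin, stood at 1746, 1371 and 1492 CPM. HMOX1, which breaks haem down, had 45.6 ± 5.62 CPM, and HFE had 0.654 ± 0.141 CPM, below the 10 counts per library used here for detection.

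At the membrane, skeleton genes took 1.24% ± 0.0308 (SD, n = 3) of counts and surface proteins and blood groups 1.84% ± 0.0750. The skeleton list includes ACTB, an actin gene not particular to red cells, which held 3744 of its 12407 CPM on average. SLC4A1, which encodes the anion exchanger band 3, stood at 1751, 2062 and 1947 CPM, lowest in replicate 1. EPB42, or protein 4.2, which ties band 3 to the skeleton, stood at 1471, 1659 and 1662 CPM. SPTB, a spectrin chain of the skeleton, was at 94.7 ± 6.48 TPM. RHAG, the Rh-associated glycoprotein, stood at 3083 ± 331 TPM, BSG at 2890 ± 114 TPM and GYPC, or glycophorin C, at 2172 ± 120 TPM. RHD and RHCE share sequence and are uncertain one by one. CD36, a receptor lost late in maturation, stood at 2395, 1486 and 1502 CPM. CD36 thus stood highest in replicate 1. The adhesion gene ICAM4 had 0 counts in all 3 libraries. This need not mean absence, since EEF1G and PSMA2, which every cell uses, also had 0 counts.

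Enzymes and antioxidants of the red cell took 3.62% ± 0.0920 (SD, n = 3) of counts. CA1, carbonic anhydrase 1, stood at 14719, 14605 and 14943 CPM and was the fifth highest gene, with a coefficient of variation (CV, the SD over the mean) of 1.17%. On the length-scaled level CA1 stood at 13502 ± 456 TPM, a wider spread for its level, and was above CA2 by 7.98 ± 0.695 times. PRDX2, the peroxiredoxin of red cells, stood at 4670 ± 289 TPM, BLVRB at 4482 ± 429 TPM, SOD1 at 1342 ± 20.2 TPM and CAT, or catalase, at 1077 ± 71.5 TPM. BPGM, which makes the 2,3-bisphosphoglycerate that lowers oxygen affinity, stood at 673 ± 85.7 TPM. The 8 lists of globins, haem, iron, membrane, transcription factor and enzyme genes held 138 genes and took 37.4%, 40.6% and 41.5% of counts, 39.8% ± 2.16 (SD, n = 3). Without the globins the remaining 128 genes took 14.4%, 14.5% and 14.6%, so that the globins carried nearly all of the difference between libraries. Not all of the 128 are particular to red cells, ACTB being an example.

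**Figure D2:**
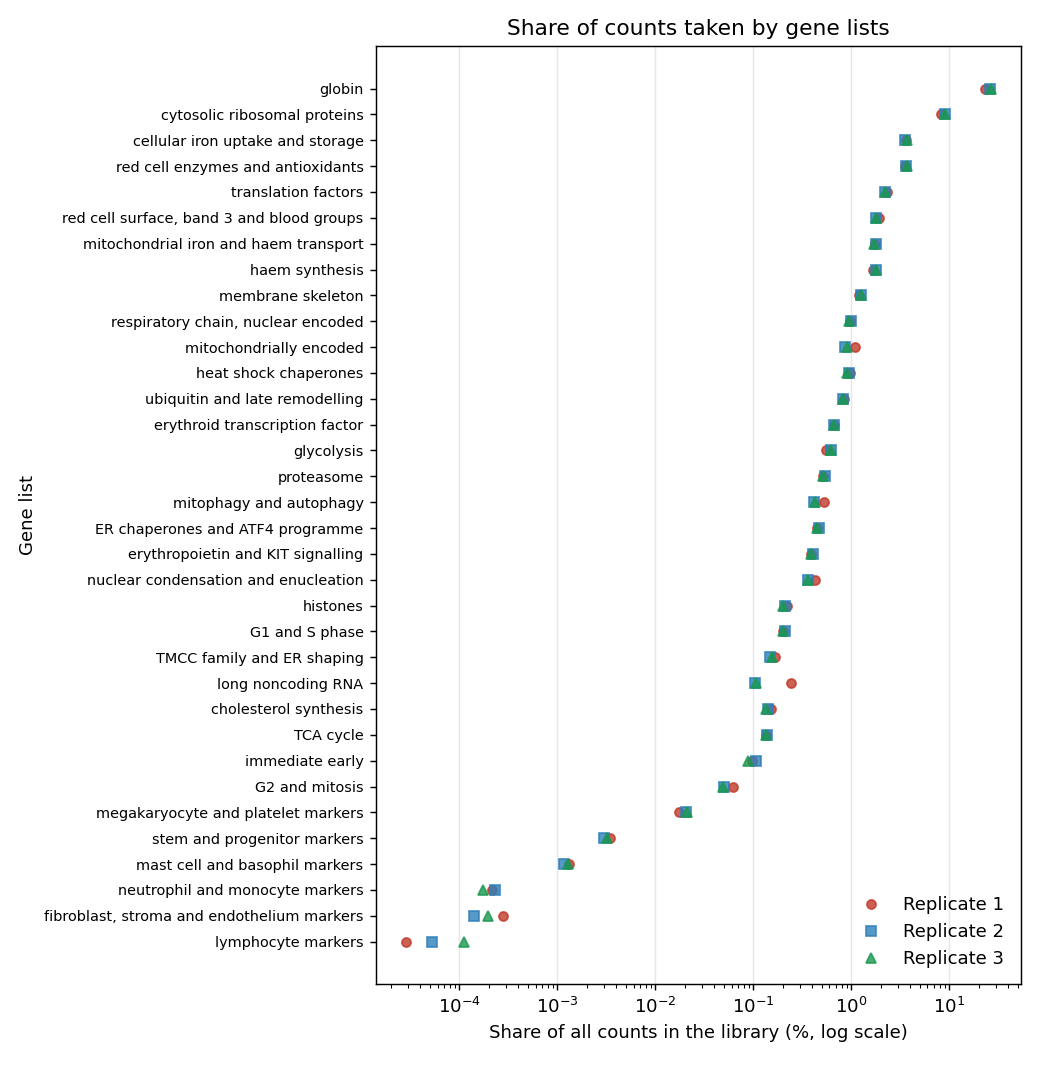
Share of all counts in a library (horizontal, percent, log scale) taken by each gene list (vertical, all but the housekeeping list), with 1 symbol per non-targeting library. Globins take 25.3% on average and ribosomal proteins 8.84%; the long noncoding RNA list is the widest of the lists above 0.1%, with replicate 1 to the right of the others.

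The erythroid transcription factor list took 0.664% ± 0.00381 (SD, n = 3) of counts, and its CV of 0.574% was the lowest of the 35 lists. That is the spread of the sum: its 27 detected members had a median CV of 13.6%, with 13 highest and 10 lowest in replicate 1. GATA1 stood at 435, 498 and 490 CPM and KLF1 at 538, 722 and 584 CPM. NFE2, a partner of the small Maf proteins at globin genes, was higher on the length-scaled level at 843 ± 46.6 TPM, as was GFI1B, a repressor, at 552 ± 34.5 TPM, against 430 ± 59.3 TPM for KLF1 and 406 ± 16.5 TPM for GATA1. GATA1 was above GATA2, which it replaces during maturation, by 85.3 ± 12.9 times. MYB, a factor of proliferating progenitors, had 2.61 ± 0.622 CPM. BCL11A, a repressor of the gamma genes, stood at 34.4 ± 5.91 TPM and ZBTB7A, another, at 1.39 ± 0.264 TPM. The GATA1 cofactor gene ZFPM1 had 1.76 ± 0.608 CPM. The low values of ZBTB7A and ZFPM1 need care, since genes that every cell uses, EEF1G and PSMA2 among them, had 0 counts here. Whether the counting of reads lowered them was not tested. Downstream of the erythropoietin receptor gene EPOR (178 ± 11.7 TPM), PIM1 stood at 681 ± 28.5 TPM, the survival gene BCL2L1 at 347 ± 9.20 TPM and the feedback inhibitor CISH at 219 ± 8.22 TPM. KIT, the receptor of stem cell factor, was at 5.11 ± 0.766 TPM, and EPOR was above it by 35.2 ± 4.61 times.

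**Figure D3:**
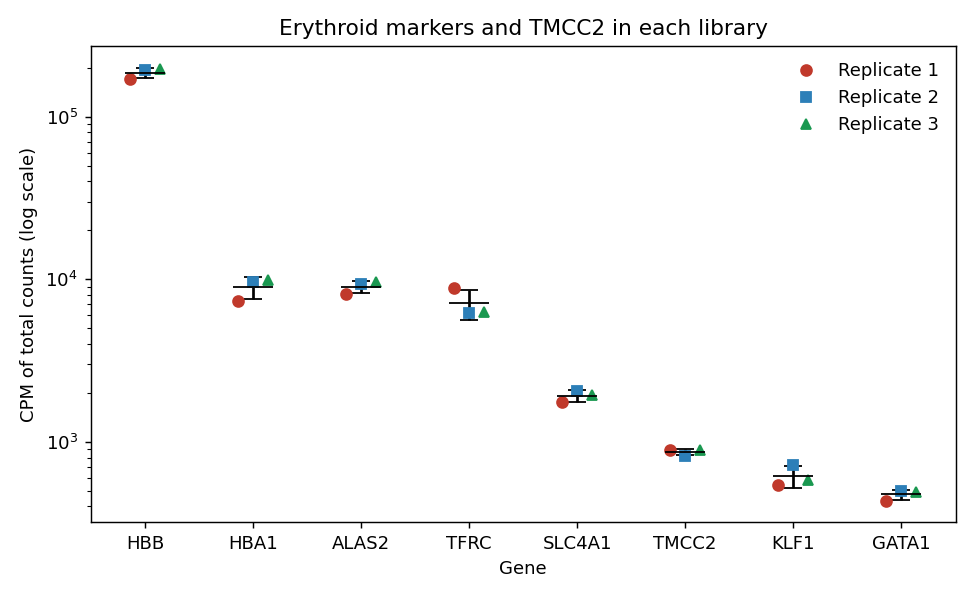
CPM (vertical, log scale) of 7 erythroid markers and TMCC2 in each non-targeting library; bars are the mean and error bars the SD of n = 3. TFRC is highest in replicate 1 at 8820 CPM, HBB, HBA1, ALAS2, SLC4A1, KLF1 and GATA1 are lowest there, and TMCC2 lies between 821 and 889 CPM.

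TMCC2 stood at 886, 821 and 889 CPM in replicates 1, 2 and 3, from 9425, 9316 and 8698 counts, a mean of 865 ± 38.6 CPM (SD, n = 3). That was 0.0865% of all counts. Its rank by CPM was 125, 136 and 123, which placed its mean level above 98.6% of detected genes. The 5 genes next above it were RPS28, GFI1B, DCAF12, ATP6V1B2 and RPS9, and the 5 next below were RPL7, STOM, SPTB, RPS27 and ATP5A1. The range of each of these 10 genes over the 3 libraries overlapped that of TMCC2, so the order within this stretch is not resolved. On the length-scaled level TMCC2 stood at 370, 324 and 347 TPM, at ranks 249, 265 and 245, above 97.2% of the 9077 detected genes with a length. There it lay beside BCL2L1 and the glyoxalase gene HAGH above and the electron transfer flavoprotein gene ETFA below, again with overlapping ranges.

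Set against the markers on the length-scaled level, TMCC2 was at 0.858 ± 0.0912 (SD, n = 3) of GATA1 and at 0.621 ± 0.0739 of SLC4A1. On that scale it was below GATA1 in each library, at 370 against 388 TPM, 324 against 420 TPM and 347 against 409 TPM. By mean CPM it was above GATA1, at 865 against 474, so their order rests on the transcript lengths used. The length of the TMCC2 isoform in these cells was not determined. GATA1 and KLF1 overlapped, at 388 to 420 TPM and 393 to 498 TPM. On the length-scaled level the order HBB, HBA1, ALAS2, TFRC, SLC4A1 above TMCC2, GATA1 and KLF1 held in every library. The family members of TMCC2 were far lower: TMCC1 had 1.05 ± 0.403 CPM, and TMCC3 had 1 count in replicate 1 and 0 in the others. TMCC2 made up almost all of the family's counts as deposited. The low values of TMCC1 and TMCC3 need care, since EEF1G and PSMA2, which every cell uses, had 0 counts here. Whether the counting of reads lowered them was not tested. Within the list of 19 genes of the TMCC family and of endoplasmic reticulum shaping, the next were REEP4, at 150 ± 9.51 TPM, and RTN3, at 140 ± 33.8 TPM. Genes outside this list were not considered for that order. REEP5 stood at 52.9 ± 8.79 TPM.

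The 3 libraries were not equally alike. Over 5809 detected genes at or above 10 CPM, the median absolute difference between replicates 2 and 3 was 0.10 on the log2 scale, against 0.28 between replicates 1 and 2 and 0.26 between 1 and 3. A difference over 1.5-fold was seen for 35 genes (0.603%) between replicates 2 and 3, for 981 (16.9%) between 1 and 2 and for 1032 (17.8%) between 1 and 3. Replicate 1 was the farthest from the middle library for 65.9% of these genes. Spearman correlations across the 9348 detected genes were 0.992, 0.978 and 0.980 for these pairs, given as a description since genes are not independent. No pair agreed within counting error, and the closest, replicates 2 and 3, differed by 3.05 times the variance that counting alone gives. The 3 are therefore not 1 library deposited again, though this does not show that they were separate cultures.

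Replicate 1 departed along the base composition of the genes. The difference of replicate 1 from the mean of the others correlated with the GC content of the transcripts at a Spearman coefficient of -0.83 across 5763 genes, which share the same libraries and are not independent. Its correlation with transcript length was 0.24. In the 5% of genes with the lowest GC content, at a median of 36.9%, replicate 1 stood 0.51 above the mean of the 3 libraries on the log2 scale, and in the 5% with the highest, at a median of 64.6%, it stood at -0.15. The labels give no date, lane or RNA quality for the libraries. Once a trend with GC content was removed within 20 bins of genes, a step chosen after seeing the data, the median absolute differences were 0.14, 0.14 and 0.10 for the pairs 1 and 2, 1 and 3, and 2 and 3.

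**Figure D4:**
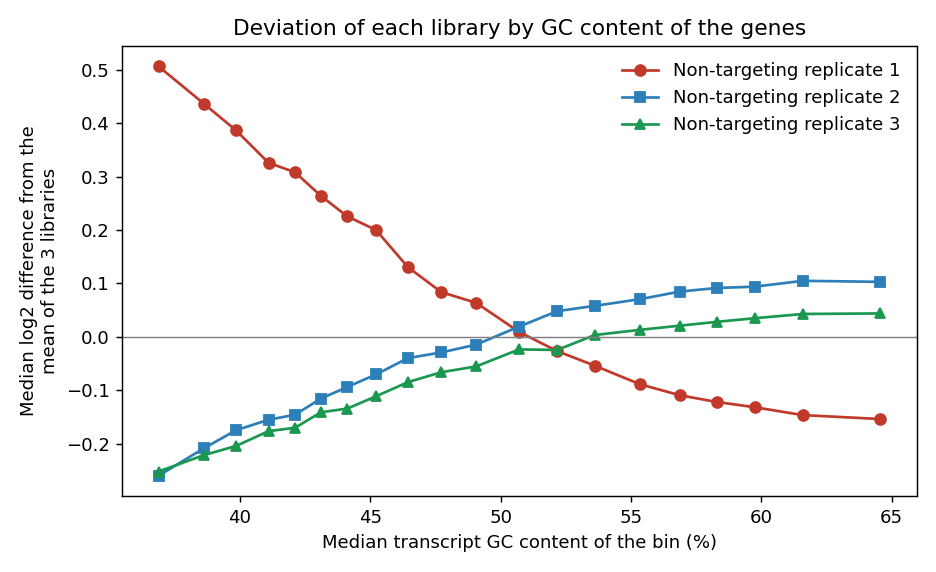
Median log2 difference of each library from the mean of the 3 (vertical) in 20 bins of 5763 genes by transcript GC content (horizontal, percent). Replicate 1 goes from 0.51 in the lowest bin to -0.15 in the highest, and replicates 2 and 3 go the other way.

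The spread of single genes was described with and without this trend. The median CV was 12.3% over genes at or above 10 CPM, where it was 13.4% for the genes from 10 to 100 CPM, 9.28% for those from 100 to 1000 CPM and 8.59% above. The CV expected from counting alone, at the mean count of each gene, had medians of 5.80%, 2.27% and 0.726% in these ranges. These are theoretical values, not CVs taken over 3 libraries, so the 2 kinds are only roughly comparable. With the GC trend removed the median CV was 7.40%. TMCC2 had a CV of 4.46%, and 216 of 1296 genes at or above 100 CPM (16.7%) had a lower one. Its transcripts have a GC content of 59.5%, and with the GC trend removed its values were 971, 769 and 868 CPM, a CV of 11.6%, with 1142 of 1291 genes lower. Its small spread as counted therefore did not hold on that scale. For TFRC the reverse was seen, with a CV of 21.0% as counted and values of 7037, 6896 and 7105 CPM with the trend removed, a CV of 1.52%. GATA1 went from 7.25% to 1.39% and SLC4A1 from 8.18% to 2.69%. HBB stood at 7.45% and 8.18%, and KLF1 at 15.5% and 8.81%.

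**Figure D5:**
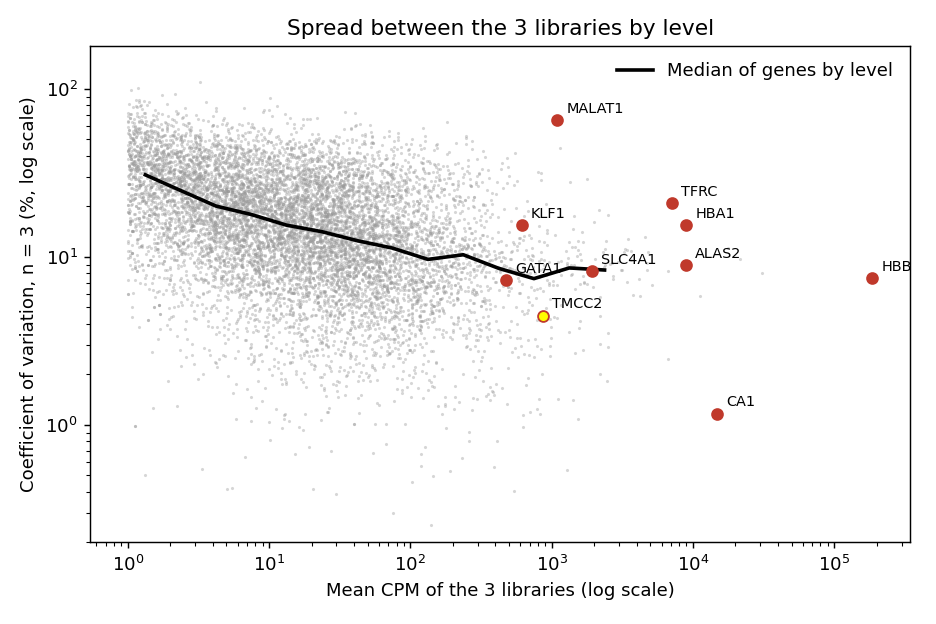
CV over the 3 libraries (vertical, percent, log scale) against mean CPM (horizontal, log scale) for genes at or above 1 CPM; the line is the median by level, red points are erythroid markers, CA1 and MALAT1, and the yellow point is TMCC2. TMCC2 lies below the line at 4.46%, TFRC above it at 21.0%, and MALAT1 is far above it at 64.8%.

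The least stable genes at or above 50 CPM shared that composition. MALAT1, a nuclear long noncoding RNA, stood at 1915, 668 and 703 CPM, with a CV of 64.8%. PPP1CB, a phosphatase subunit, stood at 315, 106 and 126 CPM, and UBE2B, a ubiquitin-conjugating enzyme, at 401, 168 and 180 CPM. The other 7 of the 10 genes of highest CV were ANP32E, BROX, RSL24D1, NDUFA5, SLC30A1, TLK1 and TMEM167A. All 10 were highest in replicate 1 and had a GC content of at most 40.7%. Of 2342 genes at or above 50 CPM, 43 were over 2-fold higher in replicate 1 than in the mean of the others and 0 were over 2-fold lower. By CPM as counted, the most stable genes included SAFB, a nuclear matrix protein, at 141, 140.2 and 141 CPM. ADIPOR1, an adiponectin receptor, was another, at 1301, 1288 and 1292 CPM. On the length-scaled level SAFB stood at 54.2 ± 2.01 TPM and ADIPOR1 at 887 ± 36.3 TPM (SD, n = 3), a wider spread for their level. Their stability therefore holds for the CPM scale only.

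Protein synthesis took the largest share after the globins. The 79 genes of cytosolic ribosomal proteins took 8.84% ± 0.524 (SD, n = 3) of counts, and all 79 were detected. RPS12 stood at 4751, 5327 and 5380 CPM and RPL3 at 3960, 4452 and 4261 CPM. Replicate 1 was the lowest library for 55 of the 79, against 29.5% of all detected genes. Translation factors took 2.25% ± 0.0622, led by EEF1A1 at 6689 ± 164 CPM and EEF2 at 3155 ± 262 CPM. The 13 protein genes of the mitochondrial genome took 0.955% ± 0.112, with all 13 highest in replicate 1, against 53.8% of all detected genes. MT-CO1 stood at 2350, 1735 and 1876 CPM. The nuclear genes of the respiratory chain took 0.969% ± 0.0135. Heat shock chaperones took 0.942% ± 0.0299 and the proteasome 0.522% ± 0.0110.

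Ubiquitin and late remodelling genes took 0.825% ± 0.0129 (SD, n = 3) of counts and mitophagy and autophagy genes 0.458% ± 0.0587. BNIP3L, the receptor that marks mitochondria for removal in red cells, stood at 2634, 1875 and 1975 CPM, highest in replicate 1, and was above BNIP3 by 499 ± 40.9 times on the length-scaled level. FBXO7, a ubiquitin ligase subunit, stood at 1527, 1508 and 1541 CPM, with a CV of 1.09% by CPM. On the length-scaled level it was at 912 ± 33.4 TPM, a wider spread for its level. G1 and S phase genes took 0.206% ± 0.00608 (SD, n = 3), much of it from the cyclin gene CCND3 at 1274, 1369 and 1329 CPM. G2 and mitosis genes took 0.0542% ± 0.00729, and 18 of 22 were highest in replicate 1, against 53.8% of all detected genes. The median GC content of the list was 44.1%, against 48.7% for all detected genes, and its part in this count was not tested. The kinase gene CDK1 stood at 47.5, 26.3 and 29.9 CPM. No cell cycle stage was assigned from these levels.

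The labelled cell type matched its own markers, with GATA1, the lowest of the 8, at rank 249 by mean CPM. Markers of other cell types were mostly at or near 0, with exceptions in the megakaryocyte, mast cell and progenitor lists. Of 11 megakaryocyte and platelet markers, 7 had 0 counts in all 3 libraries, PF4, PPBP, GP9 and VWF among them, and the list summed to 177, 208 and 208 CPM, nearly all from TUBB1 and ITGA2B. Neutrophil and monocyte markers summed to 1.74 to 2.29 CPM, with 7 of 12 at 0, and lymphocyte markers to 0.282 to 1.12 CPM, with 8 of 11 at 0. Mast cell and basophil markers summed to 11.7 to 13.3 CPM, with 4 of 8 at 0. Fibroblast, stroma and endothelium markers summed to 1.41 to 2.82 CPM, with 6 of 9 at 0. Stem and progenitor markers summed to 32.2 ± 2.09 CPM (SD, n = 3), of which KIT made up 23.4 CPM, and CD34 had 1 count in all. Counts of 0 need care here, since genes that every cell uses also had 0 counts in all 3 libraries, among them EEF1G, PSMA2, NDUFB8 and UQCR11. The cause was not tested. In bulk RNA, fewer cells of a type and less RNA per cell cannot be told apart.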

How the data were processed

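RNA was measured in 3 non-targeting HUDEP-2 libraries made with Smart-seq2 and Nextera indexing, per the labels' protocols, a chemistry without strand marking or molecular identifiers. The authors deposited raw counts per gene symbol in a table of 32738 genes. STAR and GRCh37 (hg19) are named per the submitters' processing notes. How reads were assigned to genes (program, annotation, strand, reads with several alignments) is not given in the sources used here. Reads of overlapping or antisense genes therefore cannot be told apart, and symbols absent from the table were not analysed here. The 4 columns of the other guides were not used.

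CPM is the count per 1000000 counts of a library. The length-scaled level used the median GENCODE release 29 basic transcript length, which misses the true length for some genes; 20847 genes were matched by symbol and 933 by synonym, and 97.1% of detected genes had a length. Spread was estimated with edgeR 4.0.16 and DESeq2 1.42.0 in R 4.3.3, and the rest computed in Python 3.11.15 with pandas 2.3.3 and scipy 1.17.1. Scripts were tested on simulated data. With 1 group there was no contrast, and no test was made. Values are per library, then mean and SD. Limits from counts of 0 cover counting error only.

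The rule for named genes took TMCC2 and 7 markers, the 30 highest genes by CPM and 20 by length-scaled level, up to 6 members of each of 35 lists (all members of the globin, haem, TMCC and transcription factor lists), 5 neighbours of TMCC2 on each side, and the 10 genes of highest and of lowest CV at or above 50 CPM. Genes named beyond this rule (ABCB10, SLC25A28, HFE, HMOX1, ICAM4, BNIP3, BPGM, SOD1, CDK1, PKM, PKLR, LDHA, HK2, SLC2A3, the Rh copies, HAGH and ETFA, VWF, and core genes at 0) were chosen after their values were seen. Some members of the lists are not reported here by name. The members and lists were chosen with earlier results of these data known. Alternatives tried were other totals, scalings, filters and length choices, leaving out each library, and removal of a GC trend, the last and the longest-transcript length added after seeing the data.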

Additional observations from a re-analysis of the deposited data

How the results depend on the processing

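No paired analysis was possible because only 1 group was described and no result came from a test. Of 48 alternative values, 31 differed by less than the spread between replicates, or by less than 10% or 1.5 times where no such spread applies, and 17 moved by more. With globin genes left out of the total, the level of TMCC2 was 1159 CPM, its rank 121 and the number of genes holding 50% of counts 263. By length-scaled level, the rank of TMCC2 was 253 as the mean over libraries, the globin share 44.1% and the number of genes holding 50% was 11. With the longest transcript as length, that rank was 243 and the globin share 48.7%. With at least 100 counts in each library, 5526 genes were detected. The median CV was 15.5% at or above 1 CPM, 9.14% at or above 100 CPM and 7.40% with the GC trend removed. Leaving out 1 library at a time gave a median CV of 4.94% to 13.6% and a common biological coefficient of variation (edgeR) of 5.46% to 19.3%, against 16.1% with all 3; both lowest values are those without replicate 1. TMCC2 stayed between 853 and 888 CPM and between ranks 124 and 131 (means over libraries) when 1 library was left out, and the globin share between 24.6% and 26.5%. The TMM and DESeq2 scalings gave TMCC2 a mean level of 866 CPM each. Library factors of this kind centre near 1, so that mean could hardly move. TMM factors were 1.07, 0.978 and 0.955 for replicates 1, 2 and 3. The spread of TMCC2 between libraries on these scales is not given here. Depth limits genes below about 10 CPM, where counting error is a large part of the spread, and 3 libraries limit every SD.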

Other observations

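A few of the highest genes belong to none of the red cell lists. GDF15, a secreted factor of the transforming growth factor family that erythroblasts are known to release, stood at 6034, 6866 and 7057 CPM and was the eleventh highest gene by mean CPM. It was the tenth highest on the length-scaled level, at 6248 ± 297 TPM (SD, n = 3). UCP2, a mitochondrial inner membrane carrier, stood at 2997, 3702 and 3568 CPM. Both were lowest in replicate 1, as were 29.5% of all detected genes.

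In glucose use, red cell forms and general forms of several enzymes can be set side by side. The pyruvate kinase of red cells and liver, PKLR, stood at 44.5 ± 2.84 TPM, and PKM was at 0.0921 ± 0.0226 of it (SD, n = 3). The glucose transporter gene SLC2A1 stood at 1830, 1973 and 2088 CPM, while SLC2A3 had 0.376 ± 0.0842 CPM. HK1 stood at 497 ± 19.2 TPM, and HK2 had at most 0.176 CPM. LDHA was at 0.0776 ± 0.00782 of LDHB, and LDHA has processed copies in the genome.

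Stress and immediate early genes were measurable at baseline. The chaperone genes HSPA5 and CALR, of the endoplasmic reticulum, stood at 912 ± 45.0 and 951 ± 88.2 CPM. ATF4, the factor of the integrated stress response, stood at 205 ± 9.63 TPM and TRIB3, one of its targets, at 223 ± 21.5 TPM. FOS stood at 114, 138 and 124 CPM, DUSP1 at 131, 171 and 104 CPM and EGR1 at 91.4, 87.0 and 65.6 CPM. For DUSP1 and EGR1 it was replicate 3 that was lowest, and for FOS it was replicate 1. Of the 16 detected genes of the immediate early list, replicate 1 was the highest library for 8 and the lowest for 3. Over all detected genes these shares were 53.8% and 29.5%.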
